A study of Homo sapiens with 8 samples.

Results

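The 9 genes described here encode proteins of the muscle thin filament: the cardiac and skeletal α-actins ACTC1 and ACTA1, the troponin T genes TNNT1 (slow skeletal) and TNNT2 (cardiac), the troponin I genes TNNI1 (slow skeletal) and TNNI3 (cardiac), the cardiac and slow skeletal troponin C gene TNNC1, the α-tropomyosin gene TPM1 and the leiomodin gene LMOD2. All ATAC-seq peaks that overlapped the span of a gene or the 20 kb on either side of it were collected from 8 peak lists and merged where they overlapped by at least 1 bp. This gave 95 regions of 285909 in the whole series, in 7 loci, since the windows of TNNT2 and TNNI1 and those of TNNT1 and TNNI3 overlap, and 12 regions that lie in 2 windows were counted once.

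The thin filament is an actin polymer with tropomyosin wound along it and a troponin complex at regular intervals. Troponin C binds calcium, troponin I holds the filament in the inhibited state, and troponin T anchors the complex to tropomyosin, so that a rise in calcium lets myosin bind actin and the muscle contract. Cardiac muscle uses its own actin, troponin T and troponin I genes, and the early heart also expresses the slow skeletal troponin I gene before the cardiac form takes over. ATAC-seq measures accessible chromatin by the insertion of a transposase, and an accessible promoter or distal region is a property of chromatin, not a measure of transcription.

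Chromatin was profiled in the human embryonic stem cell line RUES2 as it was driven toward cardiomyocytes, at 4 stages with 2 biological replicates each and with no genetic modification named in the labels. hESC (day 0) were cells that had already had the Wnt activator CHIR-99021 in E8 medium since the day before and were taken before the switch to RBA medium. MES (day 2, mesodermal cells) had CHIR-99021 in RBA medium, CP (day 5, cardiac progenitors) had next been given the Wnt inhibitor Xav-939, and CM (day 14, cardiomyocytes) were grown on without inhibitors and with B27. The early CHIR-99021 exposure is therefore shared by all 4 groups. Every stage is a bulk culture of a single line, so that fewer cells with an accessible region and less accessibility per cell cannot be told apart. The labels do not tie the replicates to separate days, and p-values measure only the spread between these libraries.

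The lists held 55777 to 156179 peaks per library, the fewest in CM replicate 2 and the most in MES replicate 2. At the lowest local background a region needed a pileup of 10 to 15 reads, or a fold of 2.63 to 3.17 over background, to be listed, so that a region missing from a list did not pass a q-value of 0.01 in that library and is not shown to be closed. The median log2 fold over the regions that all libraries list ran from 2.56 to 3.05, lowest in CM replicate 1 and highest in CP replicate 2, and folds are printed as deposited, whereas ranks and log2 differences were centred on that median. In the 9 windows a library listed 33 (CM replicate 2) to 60 (MES replicate 2) regions. Of the stage markers read at their TSS (transcription start site), NANOG and DPPA4 were listed in both hESC and neither CM library, and MYH6, MYL7 and TBX5 in both CM and neither hESC library. Other stage markers were listed throughout. The hESC marker ZFP42, all 4 MES markers (TBXT, EOMES, MESP1 and MIXL1) and the CP markers ISL1 and HAND1 were listed in all 8 libraries. Over every region that all 8 libraries list, the linear model limma called EOMES (log2 difference 0.58, adjusted p = 0.037), MESP1 (0.67, adjusted p = 0.02) and HAND1 (0.58, adjusted p = 0.0273) higher in CM than in hESC. GATA4 was listed in 7 libraries, TTN in 5 and NPPA in 1. POU5F1, a defining hESC gene, and MYH7, a defining cardiomyocyte gene, were listed in no library. All 3 smooth muscle markers and 2 of 4 skeletal muscle markers (MYOD1 and CKM) were listed in all 8 libraries, whereas the endothelial markers CDH5, TIE1 and PECAM1 were listed in at most 2. Smooth muscle start sites therefore did not set the stages apart, and the share of other cell types was not tested with these peaks. The paper measured the purity of its cardiomyocytes by flow cytometry for cardiac troponin T and set a lower limit for use.

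Around the thin filament genes a larger share of regions was gained, and a smaller share lost, from hESC to CM than over the genome as a whole. Of the 95 regions, 72 were listed in at least 2 libraries and were tested, and 23 were listed in 1 library only, 7 of them in hESC replicate 2 and 7 in MES replicate 2. A region was called gained where both libraries of the later stage and neither of the earlier listed it, and lost for the reverse. From hESC to CM, 11 of 72 regions (15.3%) were gained, against 5.31% of all 169532 regions tested and 5.28% of the 109394 within 20 kb of any protein-coding gene. Over the same interval 9 (12.5%) were lost, against 22.8% of all regions and 20.8% of those near protein-coding genes. These are counts by rule with no test, since 2 libraries against 2 are too few for an exact test to pass 0.05. Both differences from the genome had the same direction under each alternative tried, whereas the balance of gains and losses depended on the libraries used. Without hESC replicate 1, 12 of 71 regions (16.9%) were gained and 16 (22.5%) lost, against 5.95% and 34.2% of all regions. Without CM replicate 1, 7 of 67 regions (10.4%) were gained and 18 (26.9%) lost, against 5.21% and 32.7% of all, because the 4 regions listed in CM only were then in a single list and 1 list was enough to lose a region. With every list held to its 55777 peaks of highest −log10 q, 14 of 49 regions (28.6%) were gained against 13.4% of all.

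New regions appeared at each step of differentiation. From hESC to MES 7 of the 72 regions (9.72%) were gained and 1 (1.39%) was lost, against 10.2% and 6.67% of all regions. Between MES and CP 5 (6.94%) were gained and 3 (4.17%) lost, against 3.61% and 10.3%. Between CP and CM 4 (5.56%) were gained and 9 (12.5%) lost, against 2.38% and 10.7%. The share gained at the first step was thus near that of all regions. All 5 regions gained between MES and CP lay outside annotated protein-coding genes and away from the TSSs of such genes. So did 3 of the 4 gained between CP and CM, and 30 of the 72 tested regions. The share of all regions that lie so was not counted. Among the 5 are the ACTC1 regions 15.3 kb and 18.5 kb upstream, which lie close together.

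**Figure D1:**
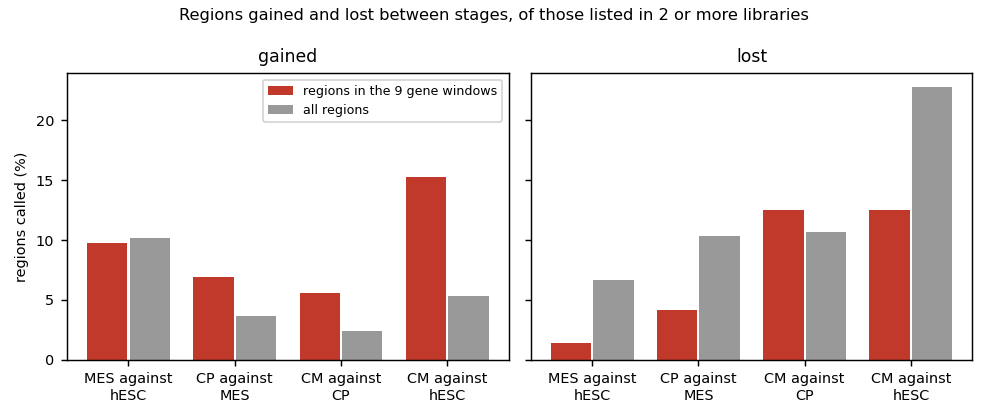
Percentage of regions gained (left) and lost (right) in each comparison of stages, for the 72 regions in the windows of the 9 genes (red) and all 169532 regions (gray). From hESC to CM the gained share is 15.3% against 5.31% and the lost share 12.5% against 22.8%.

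The 11 gained regions lay in 6 of the 7 loci. The ACTC1 window held 4 of them, those of TNNT2 and TNNI1 and of TNNT1 and TNNI3 held 2 each, and those of TNNC1, TPM1 and LMOD2 held 1 each. ACTA1 had none. Of the 11, 8 lay more than 500 bp from any TSS of a protein-coding transcript, and 2, those of TNNT2 and TNNT1, were at the canonical TSS of a thin filament gene. Start sites of noncoding genes were not searched. The folds of the 11 gained regions in CM ran from 2.63 to 6.36, and those of the 9 lost regions in hESC from 2.75 to 7.76. The other 36 of the 56 regions that were listed in 2 to 7 libraries were neither gained nor lost.

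**Figure D2:**
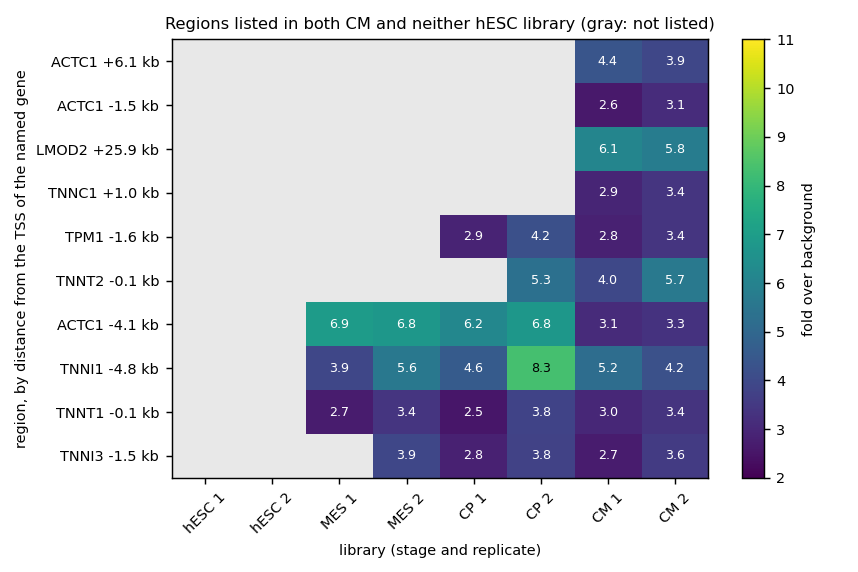
Fold over background of 10 of the 11 gained regions (rows, named by the nearest thin filament gene and the distance of the region from its TSS) in the 8 libraries (columns), with gray where a library does not list the region. From top to bottom, 4 rows are listed in CM only, the next 2 from CP on (TPM1 in both CP libraries, TNNT2 in CP replicate 2), and the last 4 from MES on, 3 of them in both MES libraries.

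Of the 9 genes, 3 (ACTC1, TNNI3 and TPM1) had a TSS region that was listed in all 8 libraries, hESC included, and 6 had one that at least 1 library did not list. The number of listed TSS regions was 5 and 6 in hESC, then 6 and 6 in MES, 5 and 7 in CP, with 9 and 5 in CM. The CM libraries disagreed most, with all 9 TSS regions in replicate 1 and 5 in replicate 2, whose list is the shortest. A TSS region lies within 500 bp of the TSS, and that of TNNI3 ends 466 bp from it and does not cover the start site.

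**Figure D3:**
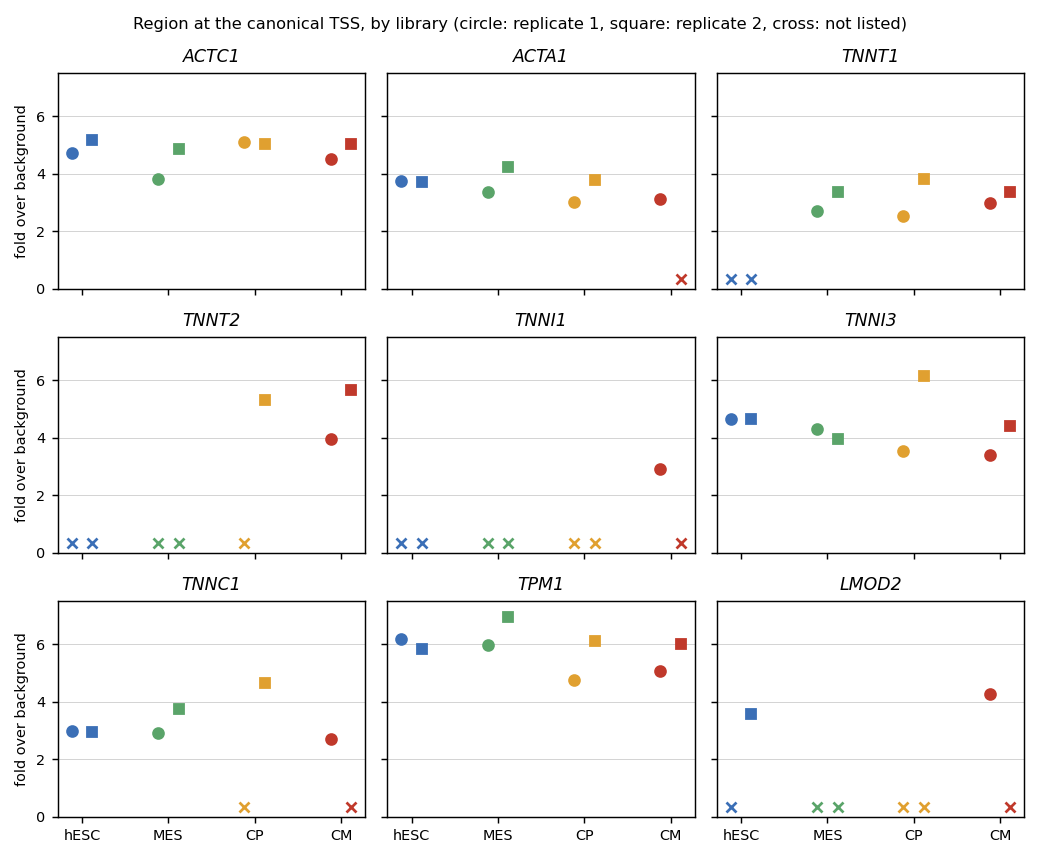
Fold over background of the region within 500 bp of the canonical TSS of each of the 9 genes, by stage (circles for replicate 1 and squares for replicate 2). A cross near the axis marks a library that does not list the region and has no value. TNNT2 has values in CP replicate 2 and both CM libraries only, TNNT1 in MES, CP and CM, and ACTC1, TNNI3 and TPM1 in all 8.

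ACTC1 encodes cardiac α-actin, the main actin of the heart sarcomere, and lies on the minus strand of chromosome 15 (34790107 to 34795589, hg38) inside GJD2-DT, an overlapping long noncoding RNA gene. Its TSS region (chr15:34794680-34796087) had folds of 4.73 and 5.19 in hESC, then 3.81 and 4.87 in MES, 5.12 and 5.04 in CP, with 4.51 and 5.03 in CM. The stages overlapped, with means of 4.96 ± 0.32 in hESC and 4.77 ± 0.37 in CM (SD, n = 2). The log2 difference of CM and hESC was 0.16 (SE 0.17, 95% confidence interval −0.21 to 0.53, adjusted p = 0.536 with limma), a value relative to the median of the regions listed in all libraries. The start site of this heart gene was thus listed from hESC on, and its fold did not set the stages apart. Its pileup was 34 and 54 reads in hESC and 111 and 64 reads in CM. The lowest local backgrounds of these libraries were 3.13, 4.62, 4.57 and 2.54 reads in the same order. The fold divides by local background, so a flat fold does not show an unchanged pileup. Whether the pileup rose with stage was not tested.

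The promoter of ACTC1 is shown because it lies wholly inside that region, which every library listed, and those of ACTA1, TNNT2 and TNNT1 are shown beside their regions for comparison. Each is the 250 bp before the RefSeq start site (GRCh38.p14), 5′ to 3′ on the strand of the gene, and RefSeq entries matched 7 of the 9 genes. The ACTC1 promoter is chr15:34795550-34795799 on the minus strand. Capitals mark matches on either strand to GATAA (GATA factors), TNAAGTG (NKX2 factors), AGGTGT (T-box), GGAATG (the M-CAT box of TEAD factors), TATAAA (the TATA box), the CArG box of SRF and the MEF2 site, none of which was found to overlap another in the sequences printed.
ACTC1 promoter: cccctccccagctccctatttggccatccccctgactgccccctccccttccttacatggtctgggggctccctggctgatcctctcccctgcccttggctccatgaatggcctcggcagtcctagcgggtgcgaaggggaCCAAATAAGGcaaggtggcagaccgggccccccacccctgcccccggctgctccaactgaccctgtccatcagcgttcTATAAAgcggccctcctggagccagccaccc
It holds a CArG box that ends 99 bp before the TSS and a TATA box that ends 25 bp before it. A CArG box was found in 1.16% and a TATA box in 10.7% of 34961 RefSeq promoters of the same length. Its ratio of observed to expected CpG was 0.28, against a median of 0.56 over all promoters.

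Around its TSS region, the ACTC1 window filled up with stage. Of its 8 regions, 1 and 2 were listed in the hESC libraries, 2 and 3 in MES, 5 and 5 in CP, with 7 and 5 in CM. These counts include the TSS region, which every library listed. Regions 15.3 kb and 18.5 kb upstream of the TSS were listed by both CP libraries and CM replicate 1 and by no hESC or MES library, with folds of 4.05, 4.45 and 3.62 and of 4.55, 5.69 and 5.12.

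A distal region 4.1 kb upstream (chr15:34799284-34799949) was gained at the MES stage. It was unlisted in both hESC libraries and had folds of 6.93 and 6.76 in MES, 6.17 and 6.77 in CP, with 3.11 and 3.31 in CM. The CM folds lay below every MES and CP fold, with means of 3.21 ± 0.14 in CM and 6.85 ± 0.12 in MES (SD, n = 2). A pair of regions, 1.5 kb upstream (folds 2.63 and 3.15) and 6.1 kb downstream of the TSS (4.39 and 3.90), appeared in the CM libraries only. The 200 bp around the summit of the region at 4.1 kb (chr15:34799506-34799705, hg38 plus strand) are shown because this region is the earliest gain at the gene.
ACTC1 4.1 kb upstream: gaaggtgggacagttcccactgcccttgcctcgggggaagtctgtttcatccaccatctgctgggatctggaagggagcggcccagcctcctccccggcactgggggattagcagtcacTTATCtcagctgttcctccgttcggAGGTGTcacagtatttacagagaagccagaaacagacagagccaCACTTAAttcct
It holds 1 match each to the GATA, T-box and NKX2 motifs. In the 200 bp windows of all 169532 regions, the GATA motif was found in 22.2%, the T-box motif in 12.7% and the NKX2 motif in 9.56%.

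ACTA1 encodes skeletal α-actin and lies on the minus strand of chromosome 1 (229430365 to 229434104). Its TSS region (chr1:229433834-229434588) had folds of 3.75 and 3.72 in hESC, then 3.37 and 4.22 in MES, 3.02 and 3.77 in CP, and 3.11 in CM replicate 1, and CM replicate 2 did not list it. No stage stood apart from the others by these values (Spearman's rho of the fold with the order of the stages −0.59, an unlisted library taking the lowest rank, exact permutation p = 0.153, adjusted p = 0.396 over all regions). CM replicate 2 listed none of the 9 regions in the window and CM replicate 1 listed 3, against 5 in each hESC and 6 in each MES library. The lost region of highest fold, at the 3′ end of the gene 3.2 kb downstream of the TSS (chr1:229430800-229431108), had folds of 3.92 and 4.16 in hESC, then 4.87 and 5.55 in MES and 4.49 and 5.28 in CP, and was unlisted in both CM libraries. In the ACTC1 window 4 of 8 tested regions were gained and 0 lost, whereas in the ACTA1 window 0 of 7 were gained and 2 lost. Over all regions 5.31% were gained and 22.8% lost, so the ACTA1 losses were near the share of all regions. The difference between the cardiac and the skeletal actin window was not tested, and CM replicate 2 has the shortest list of all libraries. With lists of equal length 1 of the 2 lost ACTA1 regions was no longer lost. ACTA1 is a gene with a CpG-richer start (observed over expected CpG 0.78), as its promoter shows (chr1:229434095-229434344, minus strand).
ACTA1 promoter: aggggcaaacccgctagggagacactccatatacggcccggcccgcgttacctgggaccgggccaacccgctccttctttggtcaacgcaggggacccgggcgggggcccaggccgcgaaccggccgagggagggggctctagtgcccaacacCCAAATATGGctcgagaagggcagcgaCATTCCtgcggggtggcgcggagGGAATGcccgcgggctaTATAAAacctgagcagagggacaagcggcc
It carries a CArG box and a TATA box like that of ACTC1, ending 87 and 24 bp before the TSS, and M-CAT boxes that end 64 and 41 bp before it. M-CAT matches were found in 11.9% of promoters.

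TNNT2, the cardiac troponin T gene and a common marker of human cardiomyocytes, went from unlisted to listed at its start site. The gene overlaps the noncoding gene ENSG00000286600. Its TSS region (chr1:201377545-201378158, minus strand, gene 201359008 to 201377764) was listed in no hESC or MES library and not in CP replicate 1, and had folds of 5.33 in CP replicate 2, 3.96 in CM replicate 1 and 5.65 in CM replicate 2. The pileups behind these folds were 82, 94 and 63 reads, with −log10 q of 31.5, 25.6 and 25.5. The local background that these folds imply is above the lowest, so the limit of 10 to 15 reads does not apply at this site. The CM mean was 4.81 ± 1.20 (SD, n = 2). The rank trend over the 4 stages had a rho of 0.84 (exact permutation p = 0.0238) and did not pass the adjustment over all regions (adjusted p = 0.165). The CP replicates differed at this site. The promoter (chr1:201377681-201377930, minus strand) is shown as a start site gained with differentiation.
TNNT2 promoter: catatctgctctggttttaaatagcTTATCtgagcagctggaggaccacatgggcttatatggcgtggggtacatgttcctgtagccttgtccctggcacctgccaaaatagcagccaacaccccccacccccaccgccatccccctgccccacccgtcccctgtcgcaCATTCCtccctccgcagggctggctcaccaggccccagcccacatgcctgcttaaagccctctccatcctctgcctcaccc
It holds a GATA match that ends 220 bp and an M-CAT box that ends 75 bp before the TSS, and no TATA box. The GATA motif was found in 20.4% of all promoters.

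Elsewhere in the TNNT2 window, some regions listed in hESC were missing from both CM lists, which does not show that they were closed. Of the 8 tested regions in this window 4 were lost. In the joint window with TNNI1 4 of 16 were lost, against 22.8% of all regions. A region centred 686 bp downstream of the TSS (chr1:201376364-201377186), at an alternative start site, had folds of 4.34 and 4.12 in hESC, then 4.46 and 3.50 in MES and 3.15 and 3.60 in CP, and neither CM library listed it. A region over coding exons 15.8 kb downstream had folds of 5.19 and 5.03 in hESC and between 3.21 and 5.79 in MES and CP, and was likewise absent from both CM lists. The lost region of highest hESC fold in the locus lay 7.8 kb upstream of the TSS over a coding exon of the neighbouring gene LAD1 (chr1:201385232-201385761), with folds of 7.76 and 5.21 in hESC, then 6.74 and 7.65 in MES, 5.14 and 6.84 in CP and no listing in CM. In CM the listed regions of TNNT2 were therefore its start site and 1 region past its 3′ end, where 8 regions of the window had been listed in at least 2 libraries.

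That last region, 29.4 kb downstream of the TSS and 10432 bp beyond the gene (chr1:201348095-201348576), was listed in all 8 libraries, with folds of 6.26 and 7.26 in hESC, then 5.36 and 8.19 in MES, 4.88 and 6.05 in CP, with 3.47 and 4.12 in CM. Both CM folds lay below all others. It was the only one of the 16 regions listed in all 8 libraries that limma called (log2 difference −0.61, SE 0.18, adjusted p = 0.0414). The call was not kept with the folds as deposited or when any 1 of the 4 hESC and CM libraries was left out.

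TNNT1 encodes slow skeletal troponin T. Its TSS region (chr19:55149104-55149492, minus strand, gene 55132698 to 55149206) was unlisted in both hESC libraries and had folds of 2.70 and 3.38 in MES, 2.54 and 3.81 in CP, with 3.00 and 3.35 in CM. All 6 libraries from the MES stage on listed it and its folds overlapped between those stages, from 2.54 to 3.81. It was no longer called gained with peaks of −log10 q of at least 5 only. The rank trend had rho 0.93 (exact permutation p = 0.00238) and an adjusted p of 0.109. The same trend had rho 0.59 (adjusted p = 0.416) with folds as deposited. With peaks of −log10 q of at least 5 only, rho was 0.39 (adjusted p = 0.584). The size of rho therefore depended on the processing. Pileups, not scaled to depth, were 56 and 77 reads at the MES stage, against 41 and 21 at the CM stage. They show no rise after the region was first listed. The TNNT1 promoter (chr19:55149207-55149456, minus strand) has a TATA box that ends 23 bp before the TSS and no other of the motifs searched.
TNNT1 promoter: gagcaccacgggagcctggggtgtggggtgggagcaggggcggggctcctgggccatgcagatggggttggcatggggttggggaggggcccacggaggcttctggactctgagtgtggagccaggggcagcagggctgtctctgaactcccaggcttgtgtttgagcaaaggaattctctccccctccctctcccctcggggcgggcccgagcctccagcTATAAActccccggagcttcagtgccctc
By contrast, 2 alternative start sites of TNNT1, 2.2 kb and 7.8 kb downstream, were listed in all 8 libraries, with folds of 4.29 to 6.43 and 5.10 to 9.88. Their log2 differences of CM and hESC were −0.08 (95% confidence interval −0.42 to 0.26) and 0.10 (−0.25 to 0.45).

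TNNI3 encodes cardiac troponin I, the form of the mature heart, and its window shares most regions with that of TNNT1. The region nearest its TSS ended 466 bp downstream of it (chr19:55156197-55157266, minus strand, gene 55151767 to 55157773) and was listed in all libraries. Folds were 4.67 and 4.65 in hESC, then 4.30 and 3.96 in MES, 3.54 and 6.15 in CP, with 3.39 and 4.42 in CM. The CP replicates alone spanned most of this range, and the log2 difference of CM and hESC was −0.05 (SE 0.19, 95% confidence interval −0.45 to 0.35, adjusted p = 0.88 with limma). No region of any library overlapped the 250 bp before the TSS itself. A region 1.5 kb upstream (chr19:55158999-55159388), over a coding exon of DNAAF3 and of the overlapping gene ENSG00000267110, was gained, with folds of 3.93 in MES replicate 2, 2.84 and 3.78 in CP and then 2.68 and 3.58 in CM. It was the only gained region that was not kept with lists of equal length.

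TNNI1 encodes slow skeletal troponin I, the main form of the fetal heart. The region at its canonical TSS (chr1:201421629-201421906, minus strand, gene 201403784 to 201429866) was listed in CM replicate 1 only, with a fold of 2.90. However, a broad region whose near end lies 281 bp downstream of that TSS (chr1:201419970-201421449), at alternative start sites, was listed in 7 libraries. Its folds were 3.16 in hESC replicate 2, 3.60 and 3.06 in MES, 5.68 and 10.09 in CP, with 4.72 and 6.24 in CM, and hESC replicate 1 did not list it. Every CP and CM fold was above every hESC and MES fold (rho 0.78, exact permutation p = 0.0349, adjusted p = 0.198), and with hESC replicate 1 left out limma called it higher in CM than in hESC replicate 2 (log2 difference 1.01, SE 0.26, adjusted p = 0.0367), where the lone hESC library is assumed to vary like the others.

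An intronic region of TNNI1 4.8 kb upstream of the canonical TSS (chr1:201426247-201426875) was gained. It was unlisted in hESC and had folds of 3.90 and 5.61 in MES, 4.59 and 8.35 in CP, with 5.22 and 4.22 in CM. The highest fold was in CP replicate 2, and the stages from MES on overlapped.

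TNNC1 encodes the calcium-binding subunit of both cardiac and slow skeletal troponin. Its TSS region (chr3:52453840-52454246, minus strand, gene 52451100 to 52454041) had folds of 3.00 and 2.96 in hESC, then 2.90 and 3.76 in MES, 4.67 in CP replicate 2 and 2.71 in CM replicate 1, and was unlisted in CP replicate 1 and CM replicate 2. The replicates of CP and of CM disagreed on its presence, and no order with stage was seen (rho −0.12, exact permutation p = 0.793, adjusted p = 0.913). A region inside the gene, 979 bp downstream of the TSS (chr3:52452879-52453250), was listed in both CM libraries only, with folds of 2.93 and 3.38, a mean of 3.16 ± 0.32 (SD, n = 2). It lies within 500 bp of an annotated alternative start site of TNNC1. It does not overlap an annotated exon in the 200 bp around its summit (chr3:52452961-52453160, hg38 plus strand). These 200 bp are shown because this region is the only gain at the gene and holds 2 GATA matches.
TNNC1 979 bp downstream: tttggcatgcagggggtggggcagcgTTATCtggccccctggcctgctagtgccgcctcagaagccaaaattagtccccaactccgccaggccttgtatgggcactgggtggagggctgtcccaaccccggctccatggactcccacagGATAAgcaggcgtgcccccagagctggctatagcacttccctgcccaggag

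TPM1 encodes α-tropomyosin and uses alternative start sites for its muscle and non-muscle forms. Its canonical TSS region (chr15:63041922-63043052, plus strand, gene 63042620 to 63071915) had folds of 6.17 and 5.85 in hESC, then 5.99 and 6.97 in MES, 4.75 and 6.12 in CP, with 5.09 and 6.02 in CM. A second promoter region 5.7 kb downstream (chr15:63047923-63049279) had folds of 5.43 and 5.25 in hESC and 4.61 and 5.53 in CM, with MES and CP between 5.67 and 6.29. Both were listed in all libraries, and their log2 differences of CM and hESC were 0.10 (95% confidence interval −0.24 to 0.44) and 0.14 (−0.22 to 0.50). TPM1 was thus listed at both starts from hESC on.

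Next to them, a region 1.6 kb upstream (chr15:63040966-63041565) was gained in CP. It was unlisted in hESC and MES and had folds of 2.88 and 4.18 in CP, with 2.83 and 3.38 in CM (rho 0.88, exact permutation p = 0.00952, adjusted p = 0.135). Far downstream, 40.5 kb from the TSS and 11093 bp past the gene (chr15:63083008-63083913), a region had folds of 3.21 in hESC replicate 2, 3.65 and 3.86 in MES, 3.97 and 7.48 in CP, with 7.59 and 6.84 in CM. hESC replicate 1 did not list it. CP replicate 2 lay above CM replicate 2 in the deposited folds, and rho was computed on folds centred on each library's median. Its rho of 0.98 has the smallest p that the assignments of 8 libraries to stages can give (exact permutation p = 0.000794). Its adjusted p of 0.0874 was the lowest value that any region had, and other regions shared it. Among them were the TSS regions of HAND1 and MYL7, both with rho 0.98. With hESC replicate 1 left out limma gave this TPM1 region a log2 difference of 1.40 (SE 0.25), again against a lone hESC library.

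Of the 10 tested regions in the TPM1 window 2 were lost, a share near the 22.8% of all regions. The lost region of highest hESC fold, 34.0 kb downstream of the TSS (chr15:63076653-63076976), had folds of 3.85 and 3.87 in hESC and 3.76 in MES replicate 2 and was listed in no CP or CM library. Neither of the lost TPM1 regions was still lost with lists of equal length.

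LMOD2 encodes leiomodin 2, an actin nucleator that sets thin filament length in the heart. Its TSS region (chr7:123655589-123656036, plus strand, gene 123655866 to 123664290) was listed in hESC replicate 2 and CM replicate 1 only, with folds of 3.56 and 4.29 over pileups of 19 and 30 reads. These values set no stage apart. A region 11.5 kb upstream (chr7:123643843-123644793) was among the strongest of the windows in the early stages, with folds of 10.03 and 9.01 in hESC and 9.05 and 10.20 in MES, then 5.11 and 7.00 in CP, 3.45 in CM replicate 1 and no listing in CM replicate 2. Every CP and CM fold was below every hESC and MES fold (rho −0.93, exact permutation p = 0.00317, adjusted p = 0.109), and with CM replicate 2 left out limma called it lower in CM (log2 difference −1.09, SE 0.20, adjusted p = 0.00728), where the library that did not list the region is the one removed and the lone CM library is assumed to vary like the others. This region lies nearer to ASB15, 4362 bp away, than to LMOD2.

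The gained region of the LMOD2 window lay 25.9 kb downstream of the TSS and 52 bp from the 3′ end of the neighbouring gene WASL (chr7:123681588-123681891). It was listed in the CM libraries only, with folds of 6.10 and 5.77, a mean of 5.94 ± 0.24 (SD, n = 2), the highest of the 4 regions that appeared in CM alone. The lost region, over a coding exon of LMOD2 7.0 kb downstream of the TSS (chr7:123662724-123663008), had folds of 4.01 and 6.10 in hESC and 3.75 in MES replicate 2 only. It was not among the lost regions with lists of equal length.

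**Figure D4:**
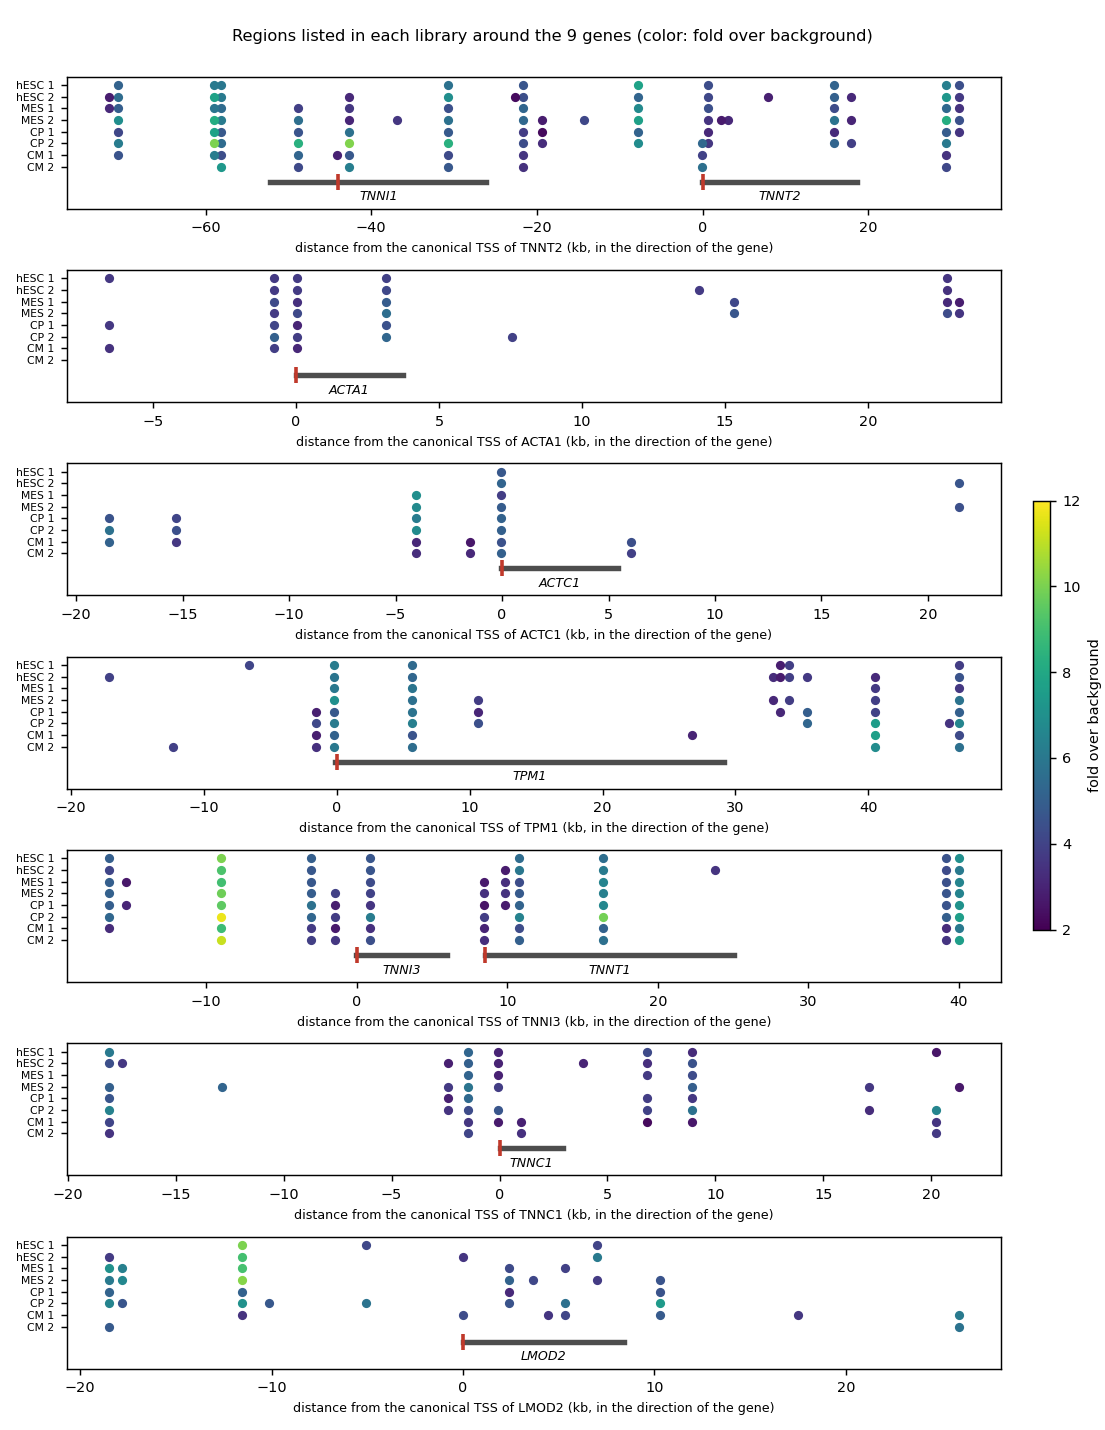
Regions listed in each library (rows) around the 9 genes, by distance of the summit from the canonical TSS in kb (red tick; gray bar, gene), colored by fold over background from 2 to 12. The ACTA1 panel empties from 5 regions in each hESC library to 3 and 0 in CM, and 1 ACTC1 region is not drawn.

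Across the 72 regions rho was above and below 0 about equally often. The median rho was −0.06, against −0.26 over all 169532 regions, and 33 of the 72 had a rho above 0. After Benjamini-Hochberg adjustment the exact rank trend called 0 regions, 0.0% of all tested as well, with a lowest adjusted p of 0.0874. At an unadjusted p under 0.05, 6 of the 72 regions (8.33%) had a rising and 7 (9.72%) a falling trend, against 4.94% and 14.0% of all regions, which came to 32143 regions in both directions. The 6 with a rising trend include the TSS regions of TNNT2 and TNNT1, the TNNI1 region beside its TSS and the TPM1 regions at 1.6 and 40.5 kb.

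Among the regions present in every list, few differences between CM and hESC passed the test. Of the 72 regions, 16 (22.2%) were listed in all 8 libraries, against 16.6% of all regions tested. limma on the log2 fold called 0 of the 16 higher in CM, against 6.28% of 28115 regions, and 1 lower (6.25%), against 6.04%, with 2 of 16 at an unadjusted p under 0.05. The log2 differences ran from −0.61 to 0.45 with a median of 0.02, against 0.10 over all regions, 8 above and 8 below 0. The highest, at a region 46.8 kb downstream of the TPM1 TSS, had folds of 3.78 and 4.57 in hESC and 4.23 and 5.65 in CM and was not called (SE 0.20, adjusted p = 0.132 with limma).

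**Figure D5:**
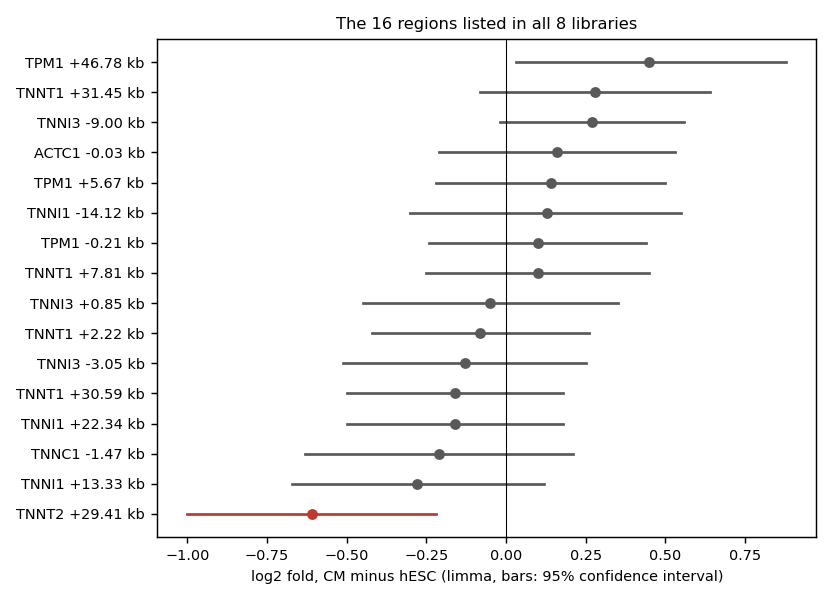
Log2 difference of CM and hESC with its 95% confidence interval (limma) for the 16 regions listed in all 8 libraries, named by the nearest thin filament gene and the distance from its TSS. The differences run from −0.61 (red, the only call, past the 3′ end of TNNT2) to 0.45 (TPM1).

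The motif content of the gained regions was compared with that of all gained regions as a description. The GATA motif was found in the 200 bp around the summit in 4 of the 11 gained regions (36.4%), against 49.6% of the 9003 regions gained genome-wide and 22.2% of all regions tested. The NKX2 motif was found in 1 of 11 (9.09%), against 18.5% and 9.56%. The T-box motif was found in 3 of 11 (27.3%), against 10.5% and 12.7%, and a MEF2 site in 0, against 5.39% and 0.936%. The 11 regions are few, and 1 match is 9.09% of them.

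Other thin filament genes were read at their canonical TSS in the same way. Of 16 genes, 6 (the tropomyosins TPM2 and TPM4, the tropomodulin TMOD1, LMOD1, the actin-severing factor CFL2 and the formin FHOD3) had a TSS region in all 8 libraries, and 4 (TNNI2, TPM3, LMOD3 and ACTG2) had none in any. NEBL, the cardiac nebulin relative nebulette, was gained, with folds of 4.33 and 6.64 in CP and then 5.28 and 6.63 in CM. ACTA2, the smooth muscle α-actin that the early heart also uses, was gained with 3.30 and 6.68 in CP and then 7.32 and 5.96 in CM. Both were unlisted in hESC and MES. NEB, the skeletal nebulin gene, was lost, with folds of 4.46 and 4.90 in hESC, 3.63 in MES replicate 2 and none later. limma called 0 of the 6 genes it could test (lowest adjusted p = 0.0886, for TPM4), and 1 of them had an unadjusted p under 0.05.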

How the data were processed

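ATAC-seq peaks of 8 libraries (2 at each of 4 stages) were analysed. As deposited by the authors, reads were mapped to hg38 with BWA (0.7.13), kept at a mapping quality above 30, which leaves out reads shared by near-identical copies, and cleared of duplicates with Picard, and peaks were called in each library with MACS2 (2.1.0) with a q-value limit of 0.01, reads shifted back by 100 bp and extended to 200 bp. A further offset for the transposase is not given in the sources used here. The lists deposited by the authors hold, per peak, the fold of the pileup over local background (a linear ratio), −log10 p and q, and a score, which was not used. Replicates were not pooled.

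Peaks on chromosomes 1 to 22 and X were merged at an overlap of at least 1 bp, and regions in at least 2 libraries were tested. Genes, TSSs and exons are from GENCODE 44, a TSS region lies within 500 bp of the canonical TSS, and the last peak on each of the 23 chromosomes lay within its hg38 length. Pileups were recovered from fold and −log10 p (100.0% within 0.001). Depth in reads is not given in the lists, and the number of libraries limits the precision. Stage trends used Spearman's rho with an exact two-sided permutation over all assignments of libraries to stages, an unlisted library taking the lowest, tied rank. CM and hESC were compared with limma (3.58.1, R 4.3.3) on log2 fold over regions listed in all 8 libraries, with all 4 stages in the fit. Both tests were Benjamini-Hochberg adjusted over all regions at 0.05 and checked on simulated data. Named regions are the TSS region of each gene and, per locus, the gained or rising region of highest CM fold and the lost or falling one of highest hESC fold. Other regions, such as those beside them, were chosen after their values were seen. The account of 1 gained ACTC1 region is not reported here. The genes, lists and rules were chosen with earlier results of these data known. Alternatives were stricter q-values, lists of equal length, merging at 100 bp, either replicate, deposited folds, a replicate block, other sets of regions, a TSS distance of 1000 bp and each library left out.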

Additional observations from a re-analysis of the deposited data

How the results depend on the processing

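In each alternative that changed a value the cause was not tested beyond its construction. With −log10 q of at least 5, regions lost from hESC to MES fell to 0, against 7.0% of all regions. With lists of equal length 49 regions were tested. Of these 2 were gained and 0 lost from hESC to MES, 1 was lost from MES to CP and 5 from hESC to CM. The shares of all regions were 10.8%, 8.8%, 8.4% and 17.8% in the same order. The TNNC1 TSS rho was then 0.48. With a stage listed by either replicate, 14 regions were gained and 6 lost from hESC to MES, 10 gained and 8 lost from MES to CP, and 17 were lost from CP to CM and 17 from hESC to CM, where the shares of all regions were 17.3%, 12.4%, 12.1%, 22.1%, 29.0% and 39.6% in the same order. With folds as deposited limma called 0 lower in CM, and rho was −0.10 (ACTC1), −0.44 (TNNI3) and −0.34 (TPM1).

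With each library left out in turn, regions gained ran from 7 to 11 (hESC to MES), 5 to 11 (MES to CP), 0 to 6 (CP to CM) and 7 to 13 (hESC to CM), and regions lost from 1 to 4, 3 to 6, 9 to 20 and 9 to 18. Of all regions, 7.9% to 19.2%, 3.72% to 8.51%, 1.56% to 5.12% and 5.21% to 9.49% were gained in the same order. Likewise 2.84% to 15.4%, 9.27% to 17.8%, 11.4% to 21.5% and 23.5% to 34.2% of all regions were lost. The count of 0 came without CM replicate 1 and was 1 without CM replicate 2. The 20 and 18 lost regions also came without CM replicate 1, and 16 were lost from hESC to CM without hESC replicate 1. Counts moved over 1.5 times as well without hESC replicate 2 (11 gained and 4 lost, hESC to MES), hESC replicate 1 (3 lost, hESC to MES), MES replicate 1 (2 lost, hESC to MES; 5 lost, MES to CP), MES replicate 2 (4 lost, hESC to MES; 11 gained, MES to CP), CP replicate 1 (9 gained and 6 lost, MES to CP) and CP replicate 2 (5 lost, MES to CP). limma called 0 to 2 regions higher and 0 to 1 lower, the 2 without hESC replicate 1 and the 0 lower without CM replicate 1 and without each hESC library, and without CM replicate 2 the 1 lower was the region 11.5 kb upstream of LMOD2. At the TSS, rho ran from −0.15 to 0.17 (TNNI3), −0.36 to 0.33 (TNNC1) and −0.06 to 0.28 (TPM1), so its sign is not settled for these 3 genes. Of the 11 gained regions, 10 remained with −log10 q of at least 5 and 10 with lists of equal length, and 7 without CM replicate 1 or without CM replicate 2. Of the 9 lost regions, 8 remained with −log10 q of at least 5 and 4 with lists of equal length.

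Whether replicate numbers pair the libraries is not settled. The deviations of same-numbered libraries correlated at 0.129 (hESC and MES), 0.133 (hESC and CP) and 0.192 (MES and CP). With CM they correlated at −0.12 (hESC), 7.36e-05 (MES) and −0.00468 (CP). With the replicate block limma called 0 regions of the windows higher and 1 lower and the trend 0, as without it, and rho at the TNNI3 TSS was −0.10. Over all regions limma called 1939 higher and 1885 lower with the block, against 1767 and 1698 without it.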
